A study of Ophthalmotilapia nasuta and Ophthalmotilapia ventralis with 60 samples.

Results

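The diencephalon of Ophthalmotilapia nasuta was set against that of Ophthalmotilapia ventralis, a pair of closely related cichlid fishes of Lake Tanganyika. The libraries were chosen by their titles, which name species, brain part and fish, and are 10 of the 60 libraries of the series: 5 from O. nasuta and 5 from O. ventralis, 1 library per fish. All 10 fish were adult females caught in the wild, O. nasuta at Mtosi and O. ventralis at Ulwile Island, and no fish was treated. Each species had its own aquarium in the same room, and on the single day of sampling the 5 O. nasuta were dissected before the 5 O. ventralis, so that species, place of capture, aquarium and order of dissection cannot be told apart in any value below. The dissected piece held the preoptic area, the hypothalamus and the pituitary together with the rest of the diencephalon. It was read by 3′ RNA sequencing, in which a transcript gives reads near its 3′ end only.

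The diencephalon is the part of the forebrain between the telencephalon and the optic tectum. Its hypothalamus and preoptic area hold neurons that make neuropeptides and set the release of pituitary hormones, feeding, stress responses and reproduction, and its thalamic part passes sensory signals on to other brain parts. In fishes the preoptic and hypothalamic nuclei also belong to the network of brain areas active in social behaviour, in which females of these mouthbrooding species choose and visit males. The roles given to genes below are those known from mammals.

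Of 46 regulators of the hypothalamus and thalamus in the files, 15 were high enough to be tested. The genes dlx2, lhx8 and pou3f1 had 0 counts in all 10 libraries. Among those present in all 10 were tcf7l2, shox2 and gsx1. The telencephalon regulator tbr1 was nearly absent, but neurod6, listed with it as a telencephalon marker, was not, as given below. The gene tcf7l2, a transcription factor of the thalamus, was at 798 to 1109 CPM (read counts scaled to a common library total) in O. nasuta and at 954 to 1706 CPM in O. ventralis. It does not mark the diencephalon alone: in the optic tectum it was at 592.5 to 774.6 CPM, scaled over all 59 libraries. shox2, a further thalamic regulator, was at 334 to 598 CPM in O. nasuta and at 403 to 580 CPM in O. ventralis, and gsx1, a regulator of hypothalamic neurons, was at 45.4 to 89.3 CPM in O. nasuta and 49.7 to 103 CPM in O. ventralis. six6, a further hypothalamic regulator, was uneven. It was at 6.26, 41.9, 38.9, 24.1 and 1.94 CPM in O. nasuta fish 1 to 5, against 37.2, 9.66, 2.18, 3.55 and 5.35 CPM in O. ventralis fish 1 to 5. tbr1, a defining regulator of the telencephalon, lay between 0 and 3.21 CPM in every diencephalon library, whereas it averaged 211 CPM in the telencephalon of O. nasuta. Of 16 pituitary gene symbols sought, only 4 were among the gene names, so most of that list could not be looked up. The pituitary belonged to the piece, but its content was thus not measured as a whole. The transcripts found were scarce and uneven: pomc, the precursor of corticotropin, was at 1.56, 0, 22.7, 3.21 and 0 CPM in O. nasuta fish 1 to 5, against 52.7, 62.8, 43.6, 0 and 4.01 CPM in O. ventralis fish 1 to 5. The hormone subunit gene cga was at 0 in all 5 O. nasuta and at 0 to 16.9 CPM in O. ventralis. Markers of head muscle summed to 0 to 12.5 CPM in O. nasuta and 6.47 to 31.8 CPM in O. ventralis. In a bulk sample, fewer cells of a type and less RNA per cell cannot be told apart.

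The libraries held 317618 to 673182 counts in genes in O. nasuta and 332342 to 796949 in O. ventralis, so that 3 counts correspond to 4.01 to 9.73 CPM and genes near that level were measured coarsely. Reads of both species were mapped to the genome of another cichlid, the Nile tilapia. The share of uniquely mapped reads that fell outside annotated genes was higher in O. nasuta (17.3 to 18.6%) than in O. ventralis (15.04 to 16.6%), without overlap (exact permutation test over the 2 groups of 5 libraries, two-sided p = 0.00794, the smallest that 5 against 5 allow). The mean difference was 2.29 percentage points in the diencephalon and 0.5996 to 2.27 in the other 5 brain parts. Counts from genes of the mitochondrial genome made up 1.97 to 2.89% in O. nasuta and 2.68 to 3.58% in O. ventralis (exact permutation test, two-sided p = 0.0317). Distances between libraries, as the root mean square log2 difference over the 500 most different genes of each pair, averaged 1.63 between the species, 1.49 within O. nasuta and 1.44 within O. ventralis. The library of O. ventralis fish 1 stood apart on the second principal component (−42.4, the other 9 between −2.86 and 19.5), and it had the most multiply mapped reads (27.6 per 100 unique, the other O. ventralis at 19.3 to 20.2).

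A set of regulators of neuronal identity varied widely between libraries of the same species. neurod6, a factor of excitatory neurons, was at 51.7, 62.9, 74.6, 46.5 and 1.94 CPM in O. nasuta fish 1 to 5, against 31.0, 16.9, 2.18, 3.55 and 1.34 CPM in O. ventralis fish 1 to 5. The library of O. nasuta fish 5 was thus low, and O. ventralis fish 1 and 2 were above the other 3 of that species. bhlhe22 (138, 223, 302, 173 and 3.88 CPM in O. nasuta, against 68.3, 91.8, 26.2, 17.7 and 42.8 CPM in O. ventralis) and zeb2 (358, 374, 422, 358 and 107 CPM in O. nasuta, against 205, 278, 153, 167 and 118 CPM in O. ventralis), named here after their values were seen, were also low in O. nasuta fish 5. In the telencephalon of O. nasuta, neurod6 averaged 72.5 CPM and bhlhe22 945 CPM, while irx2, described below, averaged 0.219 CPM there. neurod6 did not pass the test between the species (log2 difference 2.38 ± 0.87, standard error; edgeR adjusted p = 0.215). The plot of these genes by library shows the pattern. Named DE genes that lost their call with the level of bhlhe22 as a covariate are listed below, where dependence on the processing is given.

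**Figure D1:**
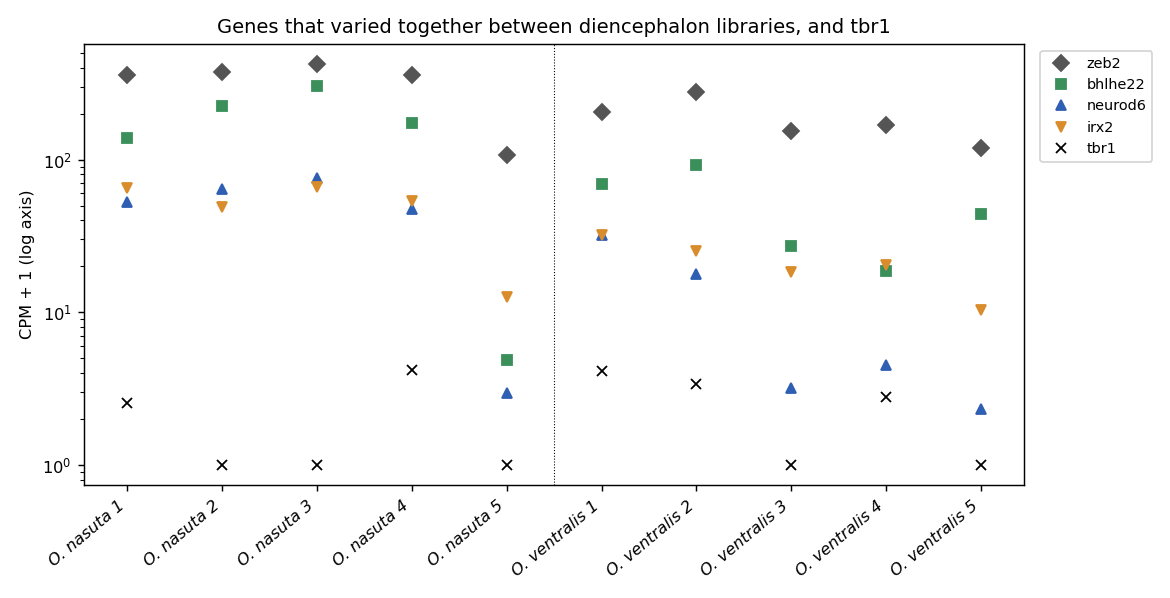
Levels of zeb2, bhlhe22, neurod6, irx2 and tbr1 in each diencephalon library, as CPM + 1 on a log axis, with the 5 O. nasuta left of the dotted line and the 5 O. ventralis right of it. The first 4 genes are low together in O. nasuta fish 5 (bhlhe22 3.88 CPM) and higher in O. ventralis fish 1 and 2 than in fish 3 to 5, while tbr1, the telencephalon regulator, stays at or below 3.21 CPM everywhere.

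Between the species, 250 of the 8685 genes tested in the diencephalon were differentially expressed (DE; 2.88%, edgeR's quasi-likelihood test, Benjamini-Hochberg adjusted p below 0.05). Of these, 137 (1.58%) were higher and 113 (1.3%) lower in O. nasuta. The median absolute log2 difference was 0.89 among the DE genes and 0.21 among all genes tested, with a median over all of −0.0012. At an unadjusted p below 0.05 there were 1434 of the 8685 genes, the share against which such counts in the gene lists below are to be read. The CPM of the 5 O. nasuta and the 5 O. ventralis did not overlap in 363 genes (4.18%), of which 163 were also DE. A change shown to exceed 2-fold was found for 9 genes (0.104%), 7 higher and 2 lower in O. nasuta. The number of DE genes moved with single libraries: it was 399 without O. nasuta fish 5, 149 without O. nasuta fish 4, 154 without O. nasuta fish 1 and 146 without O. ventralis fish 4, and 97 of the 250 genes (59 higher, 38 lower) were DE in all 10 comparisons that left out 1 library. Only 129 DE genes carry a gene symbol in the files, 64 higher and 65 lower, and the rest have a locus number that is not paired with a name.

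**Figure D2:**
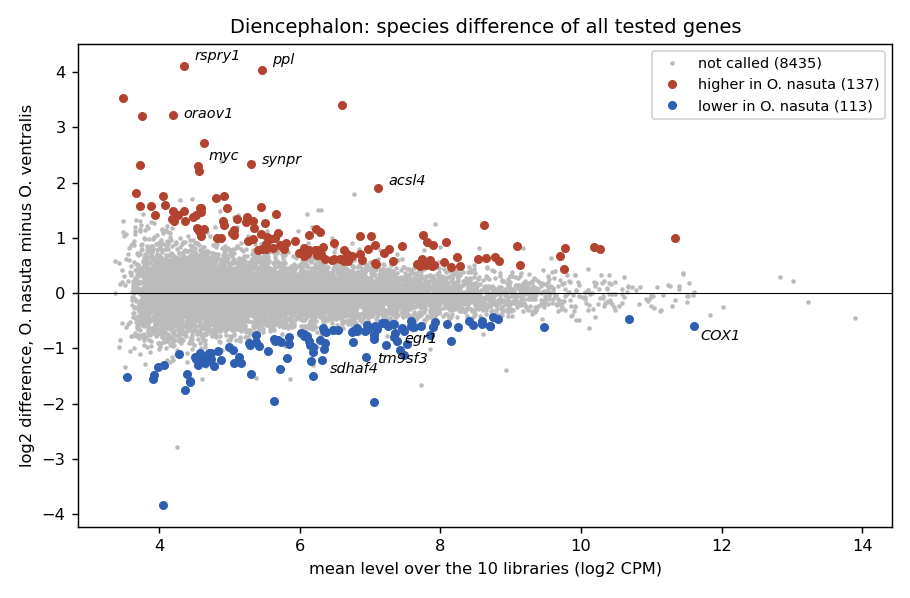
Species difference of each of the 8685 tested genes in the diencephalon (vertical axis, log2, O. nasuta minus O. ventralis) against its mean level over the 10 libraries (horizontal axis, log2 CPM). Red points are the 137 genes higher and blue points the 113 genes lower in O. nasuta, and the largest differences lie among genes of low level such as rspry1 (4.11) and ppl (4.04).

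Among the largest differences were genes with few or no reads in most libraries of one species. Whether mapping to the tilapia genome had a part in these low counts was not tested. ppl encodes periplakin, which links intermediate filaments to cell junctions. It was at 73.6, 70.5, 90.8, 85.1 and 95.2 CPM in O. nasuta fish 1 to 5, against 0, 0, 17.5, 1.77 and 4.01 CPM in O. ventralis. All O. nasuta were far above all O. ventralis, 16.4-fold by the fit (log2 difference 4.04 ± 0.37, edgeR adjusted p = 5.3e-08). rspry1, which encodes a protein with a RING and a SPRY domain, was at 40.7, 43.8, 35.7, 35.3 and 36.9 CPM in O. nasuta, against 0, 7.24, 2.18, 1.77 and 0 CPM in O. ventralis (4.11 ± 0.45, edgeR adjusted p = 1.46e-07). These are 11 to 26 reads per library in O. nasuta and 0 to 3 in O. ventralis, so the size of the difference is loosely fixed although the groups lie far apart. yipf3, a membrane protein of the Golgi, had 9 to 18 reads in O. nasuta and 0 to 3 in O. ventralis (3.20 ± 0.50). oraov1, a gene named for oral cancer overexpression, had 6 to 30 reads in O. nasuta and none in O. ventralis except for 9 in fish 5 (3.22 ± 0.61, edgeR adjusted p = 0.00672).

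Among genes at higher levels, acsl4 had the firmest difference. It encodes an acyl-CoA synthetase that prefers arachidonic acid and so feeds this fatty acid into membrane lipids. Its levels were 241, 208, 250, 167 and 241 CPM in O. nasuta, against 40.3, 26.6, 67.6, 69.2 and 76.3 CPM in O. ventralis. The lowest O. nasuta, fish 4, lay far above the highest O. ventralis, fish 5, and the difference was 3.73-fold (log2 1.90 ± 0.19, edgeR adjusted p = 6.2e-08). The same gene was DE in the same direction in 4 of the other 5 brain parts, with log2 differences of 1.56 to 2.07 there.

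Several genes of synapses and nerve cell surfaces were higher in O. nasuta. synpr encodes synaptoporin, a membrane protein of synaptic vesicles. It was at 61.0, 55.3, 74.6, 65.8 and 73.8 CPM in O. nasuta, against 18.6, 19.3, 2.18, 7.09 and 17.4 CPM in O. ventralis (log2 difference 2.34 ± 0.29, edgeR adjusted p = 1.44e-06). The species were separate, with the O. ventralis values more scattered for their size. thy1, a surface glycoprotein of neurons, was at 377, 335, 389, 324 and 355 CPM in O. nasuta, against 105, 181, 225, 176 and 232 CPM in O. ventralis (0.92 ± 0.15, edgeR adjusted p = 0.00016). sncg, the gene of gamma-synuclein, was at 40.02 to 64.2 CPM in O. nasuta and 12.1 to 29.4 CPM in O. ventralis (1.37 ± 0.25). rab35, a small GTPase of endosome recycling, was at 38.9 to 81.9 CPM in O. nasuta and 7.24 to 34.1 CPM in O. ventralis (1.31 ± 0.27). A gene of secretory vesicles was lower in O. nasuta: ica1, whose protein binds membranes of secretory granules, was at 25.2 to 39.1 CPM in O. nasuta against 40.8 to 85.1 CPM in O. ventralis (−1.04 ± 0.23). These groupings by role were made after the values were seen and carry no test of their own.

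Regulators of transcription were found on both sides. myc, the proto-oncogene, was at 42.3, 30.5, 45.4, 35.3 and 40.8 CPM in O. nasuta, against 15.5, 2.41, 8.73, 1.77 and 10.7 CPM in O. ventralis (log2 difference 2.31 ± 0.35, edgeR adjusted p = 6.61e-05). The highest O. ventralis library, fish 1, reached 15.5 CPM and stayed below every O. nasuta. ash1l, a histone methyltransferase, was at 480 to 613 CPM in O. nasuta and 293 to 431 CPM in O. ventralis (0.65 ± 0.13). On the lower side stood mkl2, a coactivator of serum response factor, with 34.4 to 57.2 CPM in O. nasuta against 71.4 to 113 CPM in O. ventralis (−1.06 ± 0.19), and setd6, a lysine methyltransferase, with 7.77 to 15.2 CPM against 18.7 to 39.3 CPM (−1.59 ± 0.32). ash2l, a subunit of histone H3 methyltransferase complexes, was also lower (−1.17 ± 0.31, edgeR adjusted p = 0.0298), but missed the threshold in 5 of the 10 comparisons without 1 library.

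Among enzymes and other proteins with household roles, sdhaf4 and tm9sf3 had the lowest p among those lower in O. nasuta. sdhaf4, an assembly factor of succinate dehydrogenase, was at 54.8, 49.5, 51.9, 43.3 and 42.7 CPM in O. nasuta, against 80.7, 135, 129, 112 and 100 CPM in O. ventralis (log2 difference −1.20 ± 0.18, edgeR adjusted p = 8.2e-05). tm9sf3, of the transmembrane 9 family, was at 73.6, 91.5, 77.8, 65.8 and 75.7 CPM in O. nasuta, against 105, 152, 255, 176 and 161 CPM in O. ventralis (−1.16 ± 0.18, edgeR adjusted p = 0.000104). The O. nasuta values of both genes were tightly grouped and all below the lowest O. ventralis, which was fish 1 in either case. dnpep (aspartyl aminopeptidase, −1.46 ± 0.27), arpc5 (a subunit of the actin-nucleating Arp2/3 complex, −1.02 ± 0.19), abhd16a (a phospholipase, −0.86 ± 0.19), tbkbp1 (a partner of the kinase TBK1, −0.61 ± 0.13) and bsg (basigin, which brings lactate transporters to the membrane, −0.60 ± 0.13) were lower without overlap, as were the open reading frames lg8h10orf88 (−0.95 ± 0.17) and lg7hxorf56 (−1.32 ± 0.28), fam212b (−1.02 ± 0.25) and becn1, a regulator of autophagy (−1.19 ± 0.29). The call of becn1 was lost in 3 of the 10 comparisons without 1 library (edgeR adjusted p up to 0.0903), and that of fam212b after thinning to the shallowest library and in the fit over all 59 libraries. Higher without overlap were sumf2, a relative of the sulfatase-modifying factor (2.21 ± 0.33), dnajc19, a co-chaperone of mitochondrial protein import (1.76 ± 0.29), pnpo, which makes the active form of vitamin B6 (1.08 ± 0.22), aldh2, the mitochondrial aldehyde dehydrogenase (0.80 ± 0.16), tuft1 (1.54 ± 0.33) and smim19 (1.55 ± 0.32).

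**Figure D3:**
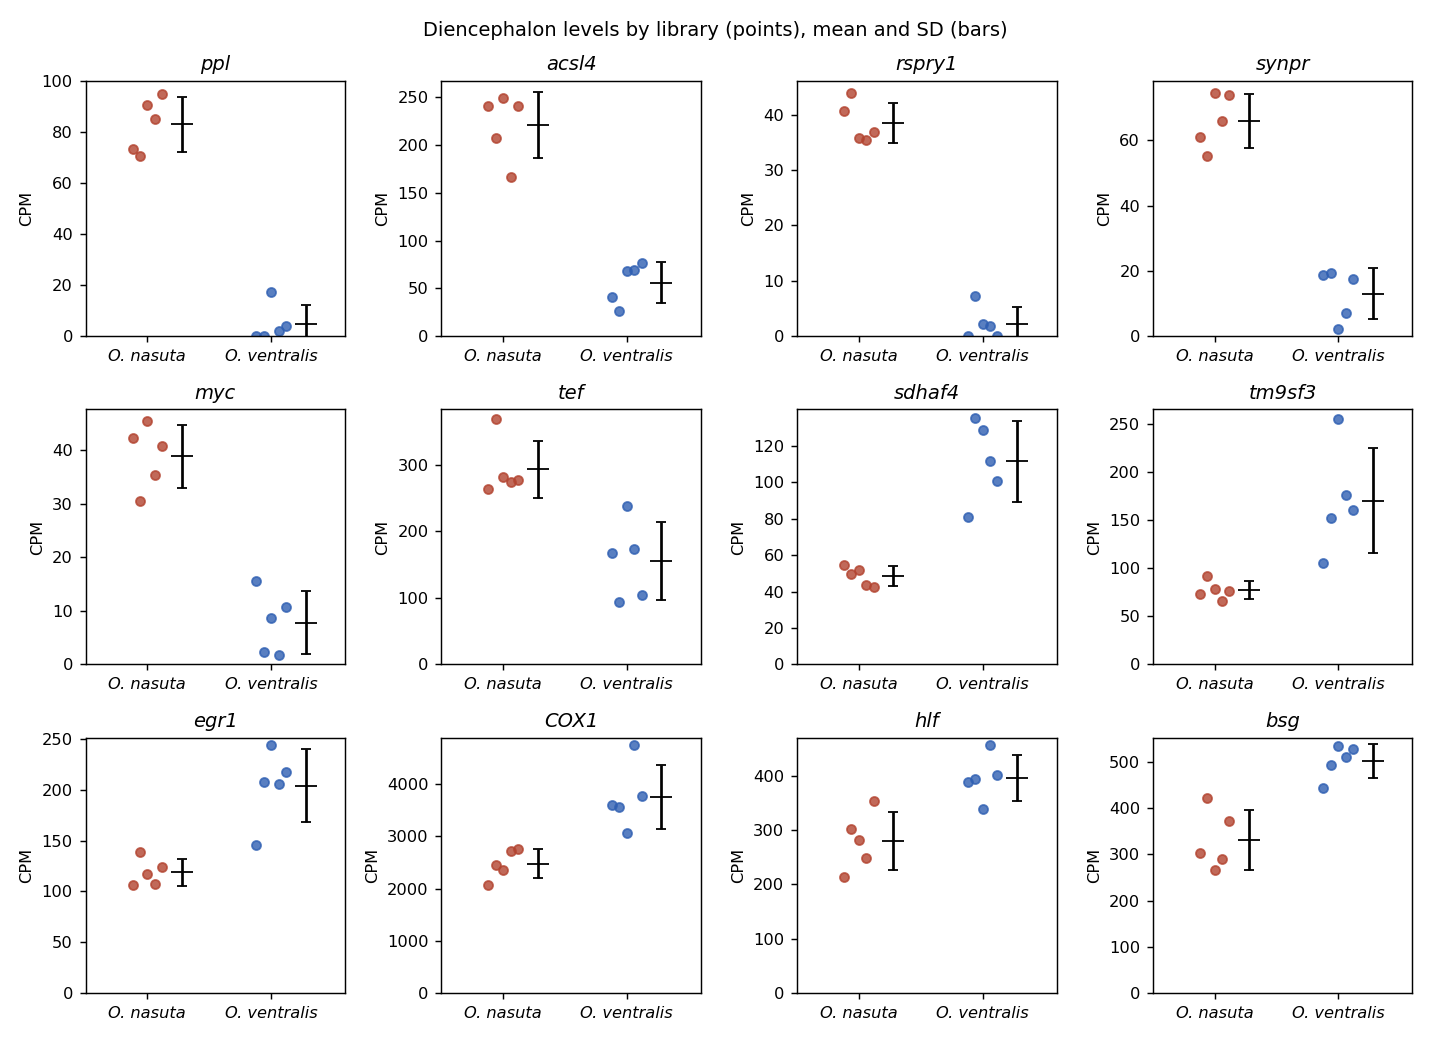
CPM of DE genes in each diencephalon library, O. nasuta (red) left of O. ventralis (blue), with mean and SD beside the points (n = 5 per species). In every panel but that of hlf, all libraries of one species lie above all of the other.

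Among the DE genes known only by a locus number, LOC100711064 and LOC100706597 had the lowest p on the higher side. LOC100711064 was at 251.97, 89.6, 172, 169 and 204 CPM in O. nasuta, against 9.31, 16.9, 10.9, 28.4 and 14.7 CPM in O. ventralis (log2 difference 3.40 ± 0.29, edgeR adjusted p = 1.46e-07). LOC100706597 was at 425 to 693 CPM in O. nasuta and 190 to 278 CPM in O. ventralis (1.23 ± 0.15). On the lower side, LOC109201896 was at 48.5, 38.1, 45.4, 49.8 and 81.6 CPM in O. nasuta, against 326, 222, 140, 186 and 189 CPM in O. ventralis (−1.97 ± 0.21, edgeR adjusted p = 9.71e-07). The species did not overlap in any of these genes. LOC109204277 (3.52 ± 0.57) and LOC106097706 (−3.83 ± 0.56) complete, with ppl, rspry1, yipf3, acsl4, synpr, LOC100711064 and LOC109201896, the 9 genes past the 2-fold limit.

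egr1 was lower in O. nasuta. It is a transcription factor switched on within minutes in active neurons and is widely used as a marker of recent neural activity. Its levels were 106, 139, 117, 108 and 124 CPM in O. nasuta, against 146, 208, 244, 206 and 218 CPM in O. ventralis (log2 difference −0.80 ± 0.15, edgeR adjusted p = 0.00121). The gap between the species was small, with O. nasuta fish 2 at 139 and O. ventralis fish 1 at 146 CPM, and the call was lost where all 59 libraries shared 1 estimate of the spread (adjusted p = 0.37). It was the only DE gene among 13 tested genes that neural activity induces (7.69%, against 2.88% of all genes), whose median difference was −0.10. Their differences ranged from −0.80 to 1.43, with 5 positive and 8 negative. By edgeR, 5 of the 13 had an unadjusted p below 0.05 (against 1434 of all 8685 genes). The other members include npas4, at 82.9, 120, 165, 106 and 186 CPM in O. nasuta and 65.2, 128, 133, 124 and 163 CPM in O. ventralis (0.03 ± 0.22), and jund (−0.02 ± 0.26), both with overlapping species. In the other brain parts, the differences of egr1 lay between −0.35 and 0.45, none of them DE. The difference between the diencephalon and the mean of those parts did not pass the edgeR test (−0.79, adjusted p = 0.688). Per the authors, the diencephalon was the last part dissected from a fish, and the time since catching varied between fish. These times are not given per fish, and their part in the egr1 values was not tested.

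Clock genes were split. The circadian clock drives rhythms through transcription factors such as clock and arntl, and tef and hlf are output factors of one family that bind the same DNA element. tef was at 264, 370, 282, 274 and 278 CPM in O. nasuta, against 168, 94.2, 238, 174 and 104 CPM in O. ventralis, higher in O. nasuta without overlap (log2 difference 0.93 ± 0.19, edgeR adjusted p = 0.00673). hlf went the other way, with 214, 301, 282, 249 and 353 CPM in O. nasuta against 388, 394, 338, 457 and 401 CPM in O. ventralis (−0.51 ± 0.14, edgeR adjusted p = 0.0323). Here O. nasuta fish 5 overlapped O. ventralis fish 3, and 6 of the 10 comparisons without 1 library lost the call. These were the 2 DE genes of 11 tested (18.2%, against 2.88% of all genes), with a median of −0.03. The core genes gave −0.60 for arntl (adjusted p = 0.28) and 0.51 for clock (adjusted p = 0.37), csnk1e gave 0.43 ± 0.18 and rora −0.03 ± 0.14. The order of dissection ran with the species, and its part in these values cannot be told apart from species.

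Transcripts of the mitochondrial genome, which encodes core subunits of the respiratory chain, were lower in O. nasuta for 3 of 12 tested genes (25%, against 1.3% of all genes) and higher for none. COX1, of cytochrome oxidase, was at 2077, 2452, 2358, 2729 and 2752 CPM in O. nasuta, against 3608, 3571, 3074, 4752 and 3776 CPM in O. ventralis (log2 difference −0.60 ± 0.13, edgeR adjusted p = 0.00396). ND4, of complex I, was at 416 to 730 CPM in O. nasuta and 694 to 1002 CPM in O. ventralis (−0.62 ± 0.14), with O. nasuta fish 3 above O. ventralis fish 3. Its call was lost in 1 of the 10 comparisons without 1 library, that without O. nasuta fish 1 (adjusted p = 0.0578). ND5, of the same complex, gave −0.55 ± 0.16 (edgeR adjusted p = 0.0436) and lost its call in 8 of the 10 comparisons without 1 library. Of the 12 genes, 10 had a negative and 2 a positive difference, with a median of −0.25. The range was wide, from −0.62 to 1.08, so the largest difference in size was positive. By edgeR, 6 of the 12 had an unadjusted p below 0.05 (against 1434 of all 8685 genes). COX3 (−0.45 ± 0.14) and COX2 (−0.25 ± 0.13) did not pass. In the fit over all 59 libraries the calls were lost for COX1 (adjusted p = 0.0561), ND4 (0.247) and ND5 (0.208). Nuclear genes of the respiratory chain had 1 DE gene of 46 (2.17%, near the 2.88% of all genes), atp5d of ATP synthase (−0.50 ± 0.15, edgeR adjusted p = 0.049), which lost its call in 8 of the 10 comparisons without 1 library, and a median of −0.11. Ribosomal protein genes had none of 66 DE, with a median of −0.03 and 8 at an unadjusted p below 0.05 by edgeR (against 1434 of all 8685 genes).

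Lipid metabolism had 2 DE genes of 9 tested (22.2%, against 2.88% of all genes), both higher in O. nasuta and with a median of 0.11 over the 9: acsl4, given above, and fabp3, a fatty acid binding protein, at 394, 385, 396, 352 and 295 CPM in O. nasuta against 217, 353, 218, 246 and 261 CPM in O. ventralis (log2 difference 0.49 ± 0.14, edgeR adjusted p = 0.0463). The fabp3 values of O. nasuta fish 4 and 5 lay at or below that of O. ventralis fish 2, and the call was lost in 8 of the 10 comparisons without 1 library. None of 7 genes of cholesterol synthesis was DE by edgeR (2 at an unadjusted p below 0.05). Their median was 0.40, with srebf1, the regulator of lipid synthesis, at 324 to 490 CPM in O. nasuta and 223 to 353 CPM in O. ventralis (0.48 ± 0.14, adjusted p = 0.0606), and srebf2, the regulator of cholesterol synthesis, at 0.40 ± 0.19.

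Neuropeptide genes, by which hypothalamic neurons signal, were mostly too low for a comparison. Only 9 of 25 in the files reached the level needed for the test. None of the 9 was DE by edgeR or had an unadjusted p below 0.05, which with 2.88% of all genes DE is no result about so short a list, and their median was 0.09. trh, thyrotropin-releasing hormone, was at 28.2, 80.03, 146, 49.8 and 13.6 CPM in O. nasuta, against 37.2, 45.9, 24.0, 23.1 and 40.2 CPM in O. ventralis (log2 difference 0.76 ± 0.58, adjusted p = 0.585). oxt, the gene of isotocin, the fish form of oxytocin, was not tested: it was at 29.7, 1.91, 162, 4.82 and 0 CPM in O. nasuta, against 3.10, 2.41, 0, 1.77 and 1.34 CPM in O. ventralis. Both genes were highest in O. nasuta fish 3 and overlapped between the species, and both are named here after their values were seen. cck, cholecystokinin, gave −0.36 ± 0.18 and nmb, neuromedin B, −0.40 ± 0.29. nmb was at 169 CPM in O. nasuta fish 5 and 48.6 to 80.3 CPM in the other 4, and its log2 difference without that fish was −0.76 (adjusted p = 0.0223). Of 15 tested transcription factors of the hypothalamus and thalamus, irx2 was DE (6.67%, against 2.88% of all genes), with a median of −0.14 over the list. irx2 was at 64.2, 47.6, 64.9, 53.0 and 11.7 CPM in O. nasuta, against 31.0, 24.1, 17.5, 19.5 and 9.37 CPM in O. ventralis (log2 difference 1.34 ± 0.36, edgeR adjusted p = 0.0427). Like bhlhe22, it was low in O. nasuta fish 5 and higher in O. ventralis fish 1 and 2 than in fish 3 to 5. The order of the other libraries was not the same for both genes. Its call was lost in 8 of the 10 comparisons without 1 library (adjusted p up to 0.132). With the level of bhlhe22 as a covariate, an alternative chosen after seeing the data, the difference of irx2 was 0.71 (adjusted p = 0.323), and 177 of the 250 DE genes stayed DE in the same direction. tcf7l2 (−0.31 ± 0.14) and shox2 (−0.15 ± 0.14) did not pass.

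The lists of cell type markers hold 3 to 10 tested genes each, too few for a count of 0 to stand apart from the 2.88% of all genes that were DE. None of 10 genes of oligodendrocytes and myelin was DE (1 at an unadjusted p below 0.05; median −0.15), and their summed level was 1033 to 1231 CPM in O. nasuta and 1023 to 1258 CPM in O. ventralis. mpz, the myelin protein, gave −0.06 ± 0.12 and mag 0.26 ± 0.16. None of 8 genes of radial glia and ependyma (3 at an unadjusted p below 0.05; median −0.01; ntrk2 −0.15 ± 0.12), none of 3 of microglia and macrophages (1; −0.35), and none of 8 of endothelium and meninges (0; −0.21) was DE. The same held for 10 genes of GABA and glutamate synthesis and transport (1; 0.10), among them slc1a2, the glial glutamate transporter, at −0.05 ± 0.12 and slc17a6, the vesicular glutamate transporter, at 0.13 ± 0.14. All these counts are from edgeR. Of the telencephalon markers, tbr1 was near 0, as given above, and the 3 tested, neurod6, neurod2 and bcl11b (0.87 ± 0.28, adjusted p = 0.0804), were all not DE but had an unadjusted p below 0.05 and a median of 1.18. Their summed level over the list was 37.1 to 166 CPM in O. nasuta and 17.3 to 83.8 CPM in O. ventralis. Its part in the DE genes was not tested. The fit with the level of bhlhe22, given above, cannot separate such a part from species. The 10 cerebellum markers in the files summed to 1187 to 1364 CPM in O. nasuta and 1347 to 1618 CPM in O. ventralis, with 0 of 8 tested DE (3 at an unadjusted p below 0.05; median −0.31), and their part in the DE genes was not tested.

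The same comparison in the other brain parts of these fish, with the same test, gave 123 DE genes of 9338 in the brain stem (1.32%), 468 of 8051 in the cerebellum (5.81%), 4 of 8671 in the olfactory bulbs (0.0461%, 9 libraries), 530 of 9038 in the optic tectum (5.86%) and 453 of 8373 in the telencephalon (5.41%). The relative spread between fish, as edgeR's biological coefficient of variation, was 0.324 in the olfactory bulbs and 0.112 to 0.167 in the other parts. The count of 4 thus does not show that the species are more alike there. Of the 250 DE genes of the diencephalon, 102 (40.8%) were DE in the telencephalon too, which is 22.5% of the telencephalon's list. With the optic tectum the overlap was 95 genes (38% and 17.9% of the lists), with the cerebellum 84 (33.6% and 17.9%), with the brain stem 54 (21.6% and 43.9%) and with the olfactory bulbs 4 (1.6% and 100%). Every shared gene had the same direction in both parts. Since the parts come from the same fish, these counts are not independent of each other. The genes dnajc19, smim19, tef and LOC100690808 were DE in all 6 parts, each higher in O. nasuta.

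There were 106 genes DE in the diencephalon and in no other part, among them arpc5, setd6 and egr1, but a call in 1 part and not in another does not show that the difference itself differs. Moreover, only 198 of the 250 DE genes were tested in all 5 other parts, and setd6 was not tested in the cerebellum. The plot of species differences by part shows that most named genes lie on the same side of 0 throughout. The estimate had the sign of the diencephalon for 211 of the 231 DE genes tested in the telencephalon (91.3%, against 64.1% of all genes tested in both) and for 194 of 233 in the olfactory bulbs (83.3%, against 57%). synpr, at 2.34 in the diencephalon and 2.05 in the telencephalon, gave −0.49 in the optic tectum, where it was not DE (adjusted p = 0.14), and the test of the diencephalon against the mean of the other parts gave 1.82 with an adjusted p of 0.745. A mean over parts that differ among themselves can hide a difference from one of them. The study tested pairs of parts on the same libraries and listed synpr and LOC100706597 among the genes whose part difference varied between the species. Its list also held ppl, LOC100690287 and bhlhe41, the genes that departed from the other parts in the test below.

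**Figure D4:**
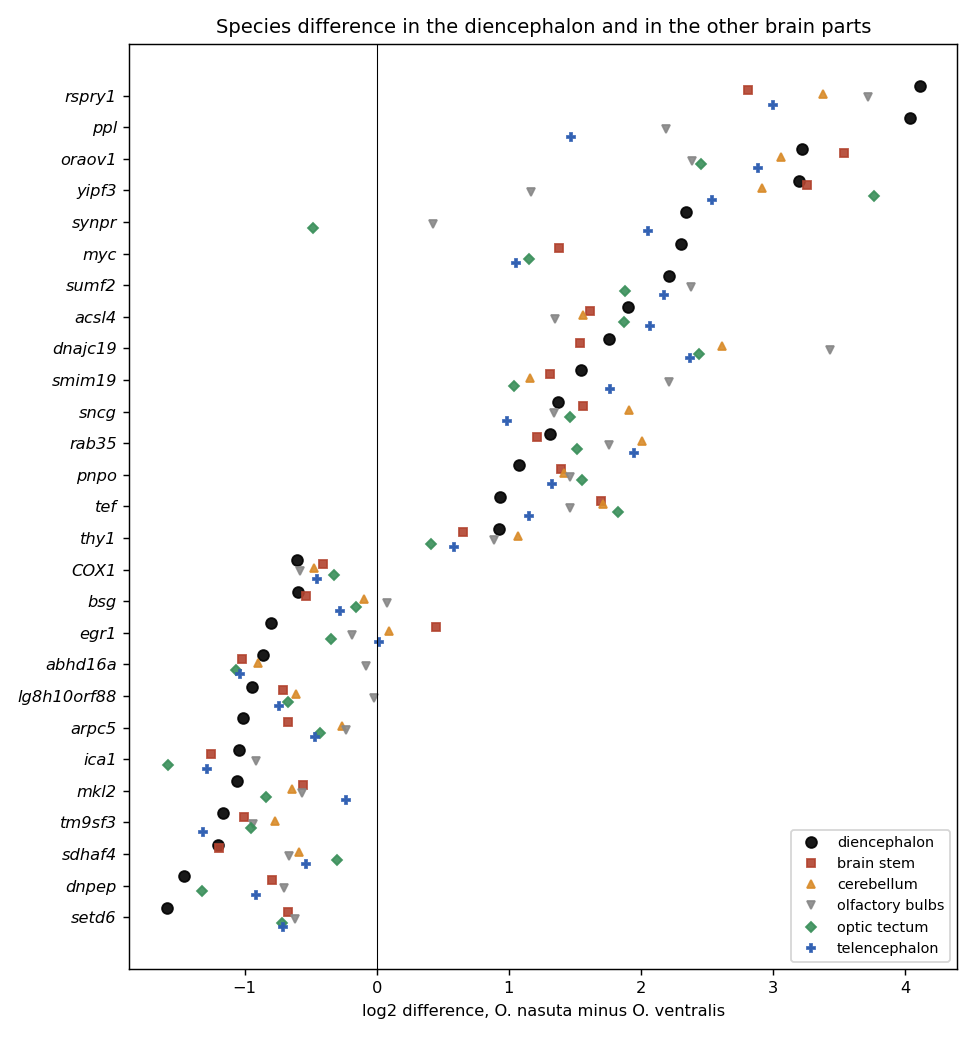
Species difference (log2, O. nasuta minus O. ventralis) of named genes in the diencephalon (black circles) and in the other 5 brain parts (other symbols), for parts in which the gene was tested. Genes from rspry1 (4.11) to thy1 (0.92) are DE and higher in the diencephalon of O. nasuta, genes from COX1 (−0.60) to setd6 (−1.59) DE and lower.

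The difference between the species in the diencephalon departed from its mean over the other 5 parts for 3 of 11680 genes (0.0257%; edgeR with a term for each fish, adjusted p below 0.05), and 684 genes had an unadjusted p below 0.05. In ppl, O. nasuta exceeded O. ventralis by 3.004 ± 0.48 more on the log2 scale in the diencephalon than elsewhere (adjusted p = 0.00029). With all 59 libraries scaled together, ppl averaged 82.2 CPM in the O. nasuta diencephalon against 4.63 CPM in that of O. ventralis, and 42.0 against 16.3 CPM in the telencephalon, where the difference was also DE. In the cerebellum, both species had 0 to 8.37 CPM.

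LOC100690287 was lower in O. nasuta in the diencephalon relative to the other parts (−1.61 ± 0.28, edgeR adjusted p = 0.00101). It was at 29.7, 36.2, 51.9, 38.5 and 36.9 CPM in the O. nasuta diencephalon, against 130, 96.6, 89.4, 119 and 103 CPM in that of O. ventralis, a log2 difference of −1.51 ± 0.19, while the differences elsewhere lay between −0.26 and 0.36. bhlhe41, a repressor in the clock that is also known for its part in sleep length, was the reverse case: it was at 98.6, 87.7, 71.3, 67.4 and 71.9 CPM in the diencephalon of O. nasuta, against 74.5, 72.4, 137, 79.8 and 95.0 CPM in that of O. ventralis (−0.21 ± 0.19, adjusted p = 0.637), but higher in O. nasuta in the optic tectum (2.405, adjusted p = 0.00096). Its estimates were also positive in the cerebellum (1.61), brain stem (0.94), telencephalon (0.46) and olfactory bulbs (0.32), where it was not DE. Its difference from the other parts was −1.30 ± 0.25 (adjusted p = 0.00503). The call for bhlhe41 was lost without the fish terms (adjusted p = 0.132), without O. nasuta fish 1 and without O. ventralis fish 3, whereas ppl and LOC100690287 kept theirs in all alternatives. The count of 3 rose to 26 without the libraries of O. nasuta fish 5 and to 5 without those of O. ventralis fish 1 or fish 2. The genes added without O. nasuta fish 5 included neurod6, bhlhe22 and zeb2, which were low in that fish's diencephalon.

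**Figure D5:**
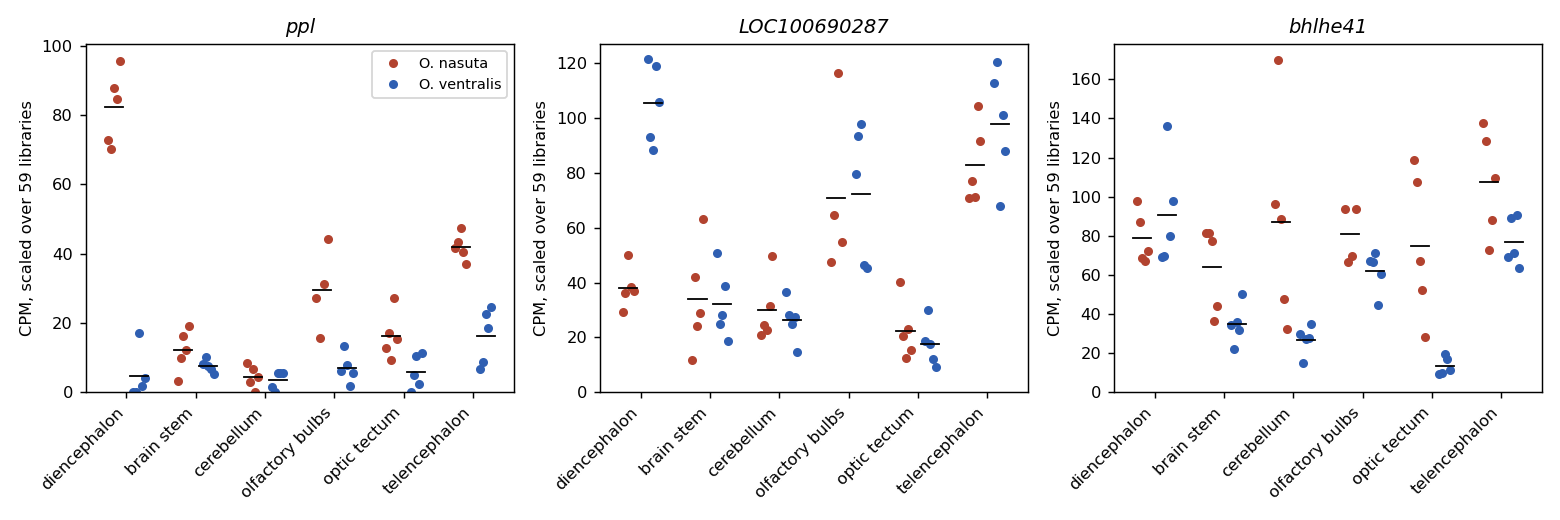
CPM of ppl, LOC100690287 and bhlhe41 in each library of the 6 brain parts, scaled over all 59 libraries, with O. nasuta (red) left of O. ventralis (blue) in each part and a line at the mean. The species lie far apart for ppl (82.2 against 4.63 CPM on average) and LOC100690287 in the diencephalon, while bhlhe41 is at a similar level in both species there. In the other parts bhlhe41 is lower on average in O. ventralis, most so in the optic tectum.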

How the data were processed

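Total RNA of 10 diencephalon pieces, 1 per female, was read by QuantSeq 3′ sequencing (single-end). Per the methods of the authors, reads were trimmed with Trimmomatic, mapped with STAR 2.5.2b to the Oreochromis niloticus genome and counted per gene with HTSeq-count 0.6.1p1, strand-specifically. The deposited values are these raw read counts for 36499 genes per library. They hold no molecular identifiers, so limits of detection cover counting error only. Reads of either species may map differently to the foreign genome.

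Genes above 15 CPM in at least 4 of the 10 libraries were kept (8685 genes, 95.7% of the counts). edgeR 4.0.16 in R 4.3.3 (TMM scaling, legacy quasi-likelihood fit with robust estimates, species as the only term) gave log2 differences, O. nasuta minus O. ventralis, with standard errors. A 2-fold limit was tested with glmTreat. CPM are TMM-scaled. The other parts were compared in the same way, and the difference between parts was tested in 1 fit over 59 libraries (11680 genes) with a term for each fish, leaving out an olfactory bulb library of 25798 counts. Both fits were run on simulated counts. For the fit over 59 libraries these held no differences between fish, so its fish terms were not tested. DESeq2 1.42.0 served as an alternative.

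Most named genes follow a rule. It took genes with a symbol that were DE without overlap and had the lowest p (15 per direction) or the largest change (10 per direction, at least 30 CPM on average in the higher species). It also took up to 4 DE and up to 2 other members per gene list. Genes past 2-fold or differing between parts, and the 2 locus numbers of lowest p per direction, were added. Genes named outside this rule include arntl, clock, neurod2, six6, gal, ND6 and LOC100690808. Members and lists were chosen with earlier results of these data known. Some items are not reported here. Extraction batches are not given per sample. The p-values measure the spread between fish of 1 aquarium per species.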

Additional observations from a re-analysis of the deposited data

Results flagged for a closer look

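Of 148 groups of 5 libraries examined, 14 had 1 library far from the other 4. The limit used is passed by about 1 in 20 groups of independent, normally distributed values. Counts near 0 from shared libraries are not such values, so no excess can be read from the 14 groups. Several of these lay at low levels: ppl at 17.5 CPM in O. ventralis fish 3 (the others 0 to 4.01), LOC106097706 at 7.77 CPM in O. nasuta fish 5 (0 to 1.61), oraov1 at 12.04 CPM in O. ventralis fish 5 (0 in the others), sumf2 at 3.55 CPM in O. ventralis fish 4 (8.73 to 9.66), fam212b at 9.73 CPM in O. nasuta fish 3 (22.5 to 26.7), bcl11b at 10.9 CPM in O. ventralis fish 3 (18.7 to 21.7) and pomc at 22.7 CPM in O. nasuta fish 3 (0 to 3.21). Scaled over all 59 libraries, oraov1 in O. ventralis fish 5 was at 12.3 to 18.3 CPM in all 6 brain parts. LOC106097706 in O. nasuta fish 5 was at 4.39 to 8.92 CPM in every part kept for that fish. The cause of the outlying values was not tested. At higher levels they were LOC109201896 at 81.6 CPM in O. nasuta fish 5 (38.1 to 49.8), nmb at 169 CPM in O. nasuta fish 5 (48.6 to 80.3), ica1 at 39.1 CPM in O. nasuta fish 1 (25.2 to 29.2), tef at 370 CPM in O. nasuta fish 2 (264 to 282) and abhd16a at 70.02 CPM in O. ventralis fish 2 (89.7 to 97.5). The library of O. ventralis fish 1 had 0.361% of its unique reads in overlapping genes (the others 0.287 to 0.301%) and 27.6 multiply mapped reads per 100 unique ones (19.3 to 20.2).

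In 3 genes the species difference in the diencephalon departed from that of the other brain parts by a test of the difference itself (edgeR, term for each fish): ppl by 3.004, LOC100690287 by −1.61 and bhlhe41 by −1.30 on the log2 scale.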

How the results depend on the processing

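The count of 250 DE genes lay between 170 and 375 under other scalings, filters, spread estimates and tools, except that thinning every library to the shallowest gave 144, a false discovery rate of 0.01 gave 100 and leaving out O. nasuta fish 5 and O. ventralis fish 1 together, chosen after seeing the data, gave 658. Leaving out 1 library gave 146 to 399. The 9 genes past 2-fold became 29 with no filter on low counts and 3 at a log2 limit of 2, and 7 to 10 without 1 library. The 3 genes that differed from the other parts became 19 without the olfactory bulbs and 27 with no filter, and 2 to 26 without 1 fish. With the level of bhlhe22 as a covariate, also chosen after seeing the data, 229 genes were DE. The cause of these shifts was not tested.

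Fish numbers do not pair the libraries across species: same-numbered libraries had correlations of −0.098 to 0.137, and 3 of 10 were closest to their own number. A replicate block gave 142 DE genes higher and 110 lower in O. nasuta, 217 of them among the 250, and 12 past 2-fold. Without the fish terms, 3 genes again differed between parts, 2 of them the same.

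Of the 47 DE genes named by the rule given above, 31 were DE under every alternative that could test them. In every comparison without 1 library 39 were DE, and none of the 47 changed direction. Calls were lost only after thinning for rab35, ica1 and lg7hxorf56, only with the covariate for tuft1, and only without both libraries named above for tef. With the covariate, becn1, ash2l, hlf, irx2, fabp3 and atp5d also lost their calls, as they did in other alternatives. Among genes that did not pass, jund turned to 0.041 with the block, 0.025 after thinning and 0.016 with DESeq2 (−0.20 to 0.10 without 1 library). rora turned to 0.062 after thinning and 0.050 without both libraries named above (−0.11 to 0.020 without 1), and npas4 to −0.28 without both (−0.14 to 0.18). With the covariate, slc1a2 turned to 0.016. Medians of the 28 tested lists moved by at most 0.0179 with other scalings. Depth limits genes at a few CPM, where 3 counts are worth 4.01 to 9.73 CPM.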

Other observations

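The remaining gene groups of the diencephalon hold 1 to 11 tested genes each, so that counts of 0 or 1 by edgeR in them say little beside the share over all genes. Among 10 tested genes of detoxification and redox balance, aldh2 was the only DE gene (10%, against 2.88% of all genes; median −0.13). None of 8 genes of the stress axis was DE (3 at an unadjusted p below 0.05; median 0.25), nor any of 11 heat shock and chaperone genes (3; 0.02), 3 genes of sex steroid synthesis and reception (0; 0.12), 3 of monoamine synthesis (1; −0.23), 5 receptors of monoamines and neuropeptides (1; −0.16), 2 of thyroid hormone signalling (0; −0.11), 4 of antigen presentation and interferon response (1; 0.33), 2 of red blood cells (1; 0.015) and 1 brain stem marker (0; 0.26). The study screened a longer list of behaviour and physiology genes on these samples. Of 17 that it found expressed, 11 could be tested (median 0.03). Among these egr1 was DE, which is no independent evidence of its direction. Markers of head muscle, retina and pineal, optic tectum and proliferation were too low for the test in every case.

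The gonadotropin-releasing hormone genes gnrh1 and gnrh2 had 0 counts in all 10 diencephalon libraries, and gal, the galanin gene, was at 3.13, 24.8, 25.9, 22.5 and 0 CPM in O. nasuta fish 1 to 5 against 40.3, 7.24, 4.36, 3.55 and 5.35 CPM in O. ventralis fish 1 to 5. The mitochondrial gene ND6, which lies on the strand opposite to most others, was at 499, 423, 376, 437 and 748 CPM in O. nasuta and at 93.1, 369, 497, 401 and 494 CPM in O. ventralis, lowest in O. ventralis fish 1, and did not pass the test (log2 difference 0.40 ± 0.38, adjusted p = 0.672).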
